A study of Brachypodium distachyon with 12 samples.

Results

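The genes described here are those listed as co-expressed with BdERECTA (Bradi1g46450), the Brachypodium ortholog of the Arabidopsis receptor kinase ERECTA. They were taken from the study's list, which came from the public co-expression database PlaNet and was not built on the libraries measured here. The list has 130 entries for 129 distinct loci, because Bradi1g16540 stands in it under more than 1 transcript. This copy is shorter than the number of co-expressed genes given in the paper, and the gap was not resolved. After BdERECTA itself was set aside, 128 loci were left. Of these, 119 matched a transcript among the 34310 counted, by the part of the identifier before the dot, and 9 were not analysed here, among them a SAUR gene (Bradi3g42250) and the gibberellin-regulated gene GASR7 (Bradi1g43850).

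ERECTA is a receptor kinase of the plasma membrane with leucine-rich repeats outside the cell. In Arabidopsis it binds small secreted peptides of the EPF and EPFL family, acts together with its close relatives ERECTA-LIKE1 and ERECTA-LIKE2, and takes part in stem elongation, stomatal patterning, meristem size and vascular development. Vascular bundles arise as strands of procambium, from which phloem and xylem are made, and protoxylem is the first xylem to mature. Genes are called co-expressed when their levels rise and fall together over many samples, which need not hold within any single organ.

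The libraries came from the shoot apex of wild-type plants of the accession Bd21-3, without any treatment, at an age given in the labels as 19 days. The 4 tissues were cut out by laser capture microdissection, in which a laser takes chosen cells from a thin section: parenchyma from the center of the stem, labelled as the control, and vascular bundles (VB) of type 1, type 2 and type 3, told apart by how many thick-walled protoxylem cells they showed. The labels give 0 such cells for type 1, 1 to 2 for type 2 and 3 to 4 for type 3. Each tissue has 3 replicates. They are described in the paper as pools of a few plants each and in the deposited design text as a single biological replicate, in which case p-values would measure only technical spread. The labels call every tissue meristem and give 500 pg of RNA per library. Whole bundles were cut out, so each VB library mixes xylem, phloem and procambium, and fewer cells of a type cannot be told apart from less RNA per cell.

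Between 12888132 and 27218311 read pairs were counted per library. Parenchyma replicate 3 stood apart from the rest: 86.3% of its pairs fell on a single transcript (Bradi2g12067.1, not a listed gene), against 15.1 to 54.2% in the other 11 libraries, which left 1768043 other pairs against 9080187 to 23109703. Levels are given as CPM, the read-pair count of a transcript relative to a library size set by TMM, a method that equalizes the bulk of genes between libraries. A floor of 3 pairs was worth 1.38 CPM in parenchyma replicate 3 and 0.0723 to 0.166 CPM elsewhere, so low levels in that library are coarse, and results that rest on it are given with and without it. The VB markers XCP1 (xylem), PIN1a, TMO6 and PXY (procambium) and SWEET7 (phloem) were all above parenchyma in each VB library. The phloem marker SWEET11 had pairs only in VB type 1 replicate 3, at 1.54 CPM.

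The listed genes were well represented in the shoot apex. Each of the 119 had pairs in at least 1 library, 83 had pairs in all 12, and 99 (83.2%) reached the level needed for the test of all VBs against parenchyma (1 CPM in at least 6 of 12 libraries), against 48.7% of all transcripts. Because parenchyma has only 3 libraries, a gene found in parenchyma alone could not enter that test. Another 8 genes were tested in a comparison of 6 libraries and 12 in none. Among the 99, the median level per length was 7.17 CPM per kb, against 6.27 over all genes tested.

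More of the listed genes lay lower in VBs than higher. The log2 fold change of all VBs (the mean of the 3 types) against parenchyma was below 0 for 68 of the 99 genes and above 0 for 31, with a median of -0.39 and quartiles of -1.09 and 0.31, while the median of all 16706 genes tested was 0.01. It was -0.36, -0.46 and -0.35 for VB types 1, 2 and 3, comparisons that share the same parenchyma libraries. The parenchyma mean was the highest of the 4 tissue means for 52 of the 99 genes (52.5%), against 34.4% of all genes tested. The summed level of all 119 genes was 3952 to 5191 CPM in the parenchyma libraries and 2466 to 4211 CPM in the VB libraries, so the ranges overlapped in VB type 1 replicate 3. Without parenchyma replicate 3 the median was -0.44.

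**Figure D1:**
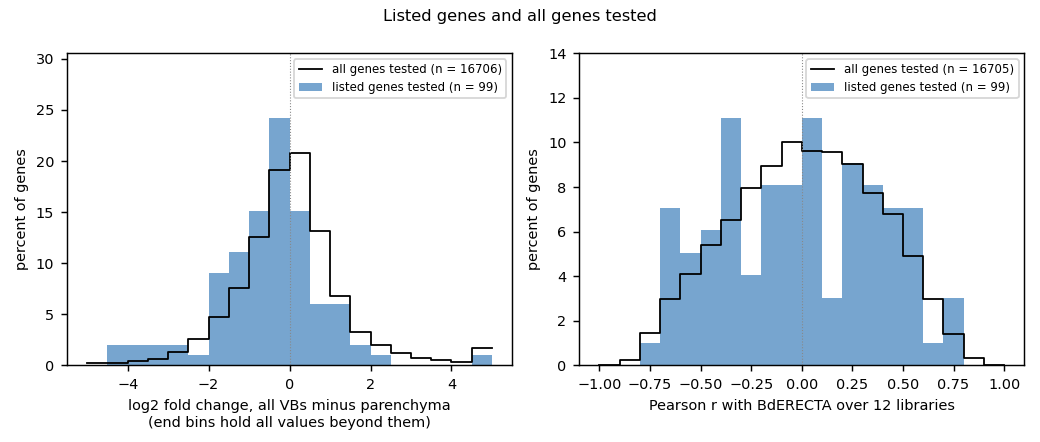
Percent of genes per bin for the 99 listed genes tested (bars) and all genes tested (line). Left, log2 fold change of all VBs against parenchyma, where the bars sit further to the left than the line (medians -0.39 and 0.01). Right, Pearson r with BdERECTA over 12 libraries, where both are spread around 0.

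Of the 99 genes, 10 passed the threshold of 0.05 in edgeR's quasi-likelihood test, with p-values adjusted by Benjamini-Hochberg over all genes tested. Lower in VBs were 9 (9.09% of the listed genes, background 3.78% of all genes tested), and higher in VBs was 1 (1.01%, background 1.25%), a gene without a pair in parenchyma that met the level needed for the test through VB libraries alone. At an unadjusted p under 0.05 there were 22 lower (background 11.1%) and 5 higher (background 7.52%). The lowest parenchyma library exceeded the highest VB library for 7 genes (background 4.72%), and the reverse held for 2 (background 3.24%). A log2 fold change below -1 was found for 29 genes (background 17.8%) and above 1 for 10 (background 16.6%). The likelihood ratio test called 15 (background 10%) and DESeq2 called 14 (background 10.9%). Without parenchyma replicate 3, 5 genes passed, of which 4 were among the 10: the boron transporter Bradi2g34110.1, the α-glucan phosphorylase Bradi1g08070.1, the methyltransferase-type protein Bradi3g51560.1 and Bradi3g05110.1, which has no listed function. The share of all genes tested that passed without that library is not given here, so this count cannot be set against a background.

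**Figure D2:**
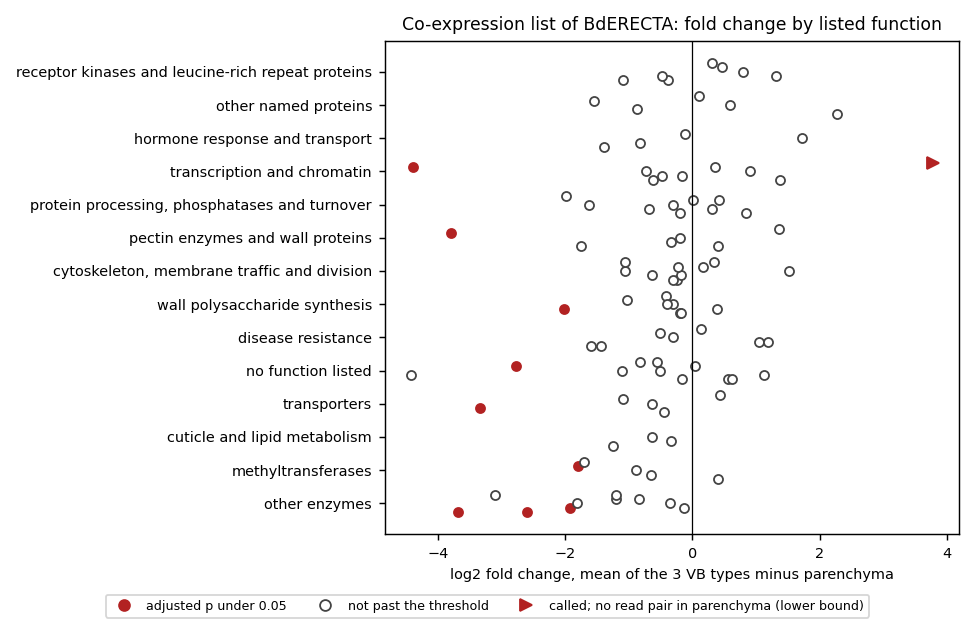
Log2 fold change of all VBs against parenchyma (x axis) for the 99 listed genes tested, by listed function (y axis, ordered by median, and spread within a row only for legibility). Filled points are the 10 genes past the threshold, and the triangle is the BAH domain gene, drawn at its lower bound because no pair was counted in parenchyma.

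The boron transporter Bradi2g34110.1 was the gene of the list with the smallest adjusted p. Transporters of this family carry borate, which cross-links pectin in the wall. Its level in parenchyma was 116, 133 and 46.9 CPM in replicates 1 to 3, and in the VB libraries it was between 4.49 and 24.8 CPM with a median of 9.89. All 3 parenchyma libraries lay above all 9 VB libraries. The fold change was 10.1-fold lower in VBs (log2 -3.34, SE 0.43, adjusted p = 0.000904, edgeR's quasi-likelihood test), and 12.6-fold lower without parenchyma replicate 3. It passed the threshold under all 20 alternatives. The other 4 transporters did not pass, and the most abundant of them, the heavy metal-associated domain gene Bradi5g08240.1, had 156 to 196 CPM in parenchyma and 156 to 346 CPM in VBs.

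The α-glucan phosphorylase Bradi1g08070.1, an enzyme that releases glucose 1-phosphate from starch-like glucans, was likewise separated. It had 118, 130 and 188 CPM in parenchyma. It had 37.7, 43.2 and 34.6 CPM in VB type 1, 28.4, 17 and 5.5 CPM in type 2, and 16.2, 22.5 and 22.8 CPM in type 3. The parenchyma libraries were all above the VB libraries, and within VBs type 1 lay above the others without overlap. The fold change was 6.1-fold lower in VBs (log2 -2.61, SE 0.35, adjusted p = 0.00101, edgeR's quasi-likelihood test). It was 5.13-fold lower without parenchyma replicate 3, and passed under 19 of 20 alternatives. Between VB types 3 and 1 the log2 difference was -0.93 at an unadjusted p of 0.0233 and an adjusted p of 1 (edgeR's quasi-likelihood test).

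**Figure D3:**
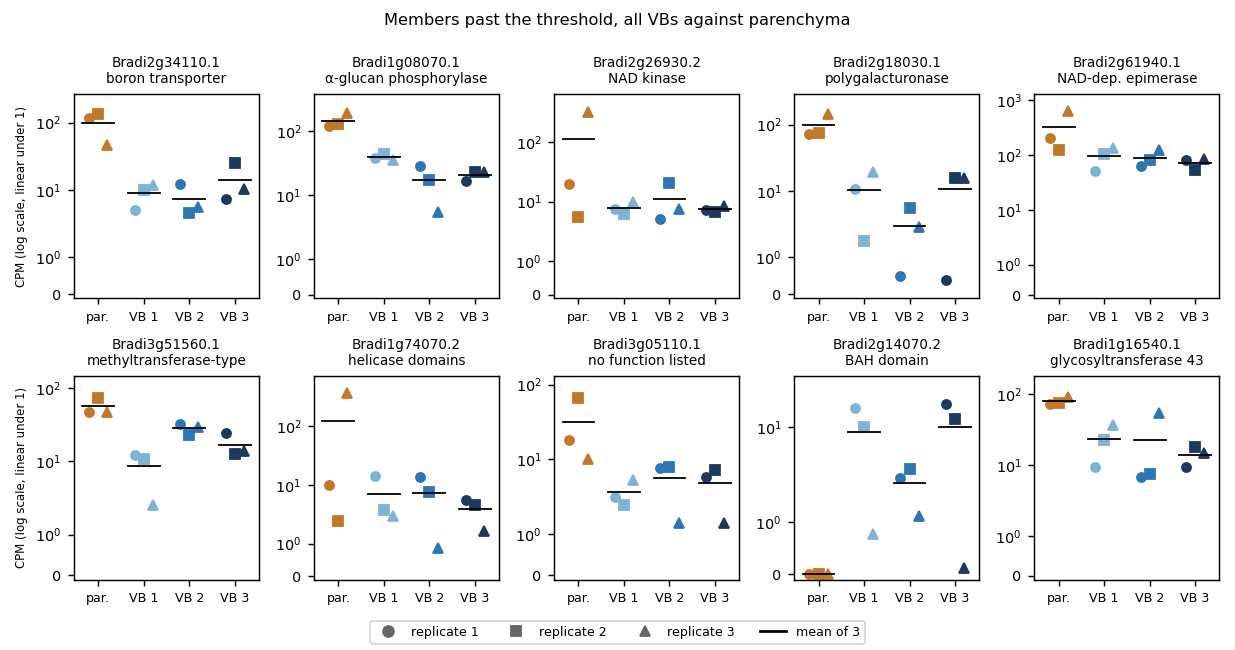
Level of the 10 genes past the threshold in each library (CPM, logarithmic axis that is linear under 1), by tissue, with the mean of 3 replicates as a line. In 3 panels (NAD kinase, epimerase and helicase-domain gene) parenchyma replicate 3 lies far above replicates 1 and 2, and the BAH domain gene is at 0 in all parenchyma libraries.

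Of the 10 listed genes grouped as other enzymes of metabolism, all 10 had a log2 fold change below 0, with a median of -1.51. The summed level of the group was 593 to 1463 CPM in parenchyma and 203 to 436 CPM in VBs, without overlap. Of the 10, 3 passed the threshold and 7 had an unadjusted p under 0.05, against the background of 3.78% and 11.1% of all genes tested, lower in VBs. The same background applies to the counts of the other function groups, which were sorted by hand and hold few genes each. Without parenchyma replicate 3, 9 of 10 were below 0, the median was -0.92 and 1 passed. The NAD kinase Bradi2g26930.2, which makes NADP from NAD, had 19.9 and 5.56 CPM in parenchyma replicates 1 and 2 and 312 CPM in replicate 3, against 5.14 to 20.8 CPM in VBs. For this gene, parenchyma replicates 1 and 2 thus both lay within the VB range. Its fold change of 12.8-fold lower (adjusted p = 0.0106, edgeR's quasi-likelihood test) fell to 1.44-fold lower (adjusted p = 0.76) without replicate 3. The NAD-dependent epimerase Bradi2g61940.1, of a family that interconverts sugars and related substrates, had 206, 124 and 651 CPM in parenchyma and 50.5 to 134 CPM in VBs, and its 3.81-fold lower level (adjusted p = 0.0152, edgeR's quasi-likelihood test) became 1.9-fold lower (adjusted p = 0.221) without that library. The ranges of the epimerase overlapped. At the other end of the group, the peptide methionine sulfoxide reductase Bradi1g51410.1, which repairs oxidized methionine, had 16.1 to 45.9 CPM in parenchyma and 12.3 to 47.5 CPM in VBs.

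The list holds 8 genes of wall polysaccharide synthesis and 8 pectin enzymes and other wall proteins. Of the 8 genes of wall polysaccharide synthesis, all tested, 7 had a log2 fold change below 0 and 1 passed the threshold, with a median of -0.35. The gene that passed was the glycosyltransferase Bradi1g16540.1 of family 43, whose Arabidopsis members IRX9 and IRX14 build the xylan backbone. Its level was 71.7, 74.8 and 90.1 CPM in parenchyma. It was 9.49, 22.3 and 36.8 CPM in VB type 1, 6.71, 7.36 and 54 CPM in type 2, and 9.33, 17.8 and 14.5 CPM in type 3. No VB library reached the lowest parenchyma library. The fold change was 4.08-fold lower (log2 -2.03, SE 0.54, adjusted p = 0.0468, edgeR's quasi-likelihood test), near the threshold, and the gene passed under 9 of 20 alternatives; without parenchyma replicate 3 it was 3.73-fold lower (adjusted p = 0.14).

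The more abundant synthases were not set apart between parenchyma and VBs as a whole but varied strongly among replicates. The cellulose synthase CESA5 (Bradi1g02510.1) had 224, 406 and 211 CPM in parenchyma. It had 63.3, 293 and 681 CPM in VB type 1, 104, 267 and 424 CPM in type 2, and 128, 170 and 179 CPM in type 3. Its log2 fold change was -0.20 (SE 0.53, adjusted p = 0.894, edgeR's quasi-likelihood test), and the highest and the lowest value both came from VB type 1. All type 3 libraries of CESA5 lay below all parenchyma libraries (log2 -0.80, SE 0.373, adjusted p = 0.417, same test). CSLA1 (Bradi3g06740.1), a mannan synthase, spanned 70.2 to 264 CPM in VBs and 96.5 to 266 CPM in parenchyma. CSLC1 (Bradi2g50967.1), of the family that makes the glucan backbone of xyloglucan, spanned 9.09 to 124 CPM in VBs and 32 to 83.7 CPM in parenchyma. Both ranges overlapped those of parenchyma, and the lowest VB value of CSLA1, CSLC1 and CESA5 alike was that of VB type 1 replicate 1 and the highest that of VB type 1 replicate 3. The xyloglucan galactosyltransferase Bradi1g75450.1, which adds galactose to xyloglucan side chains, had 90.9, 29.7 and 34.5 CPM in parenchyma and 4.72 to 39.6 CPM in VBs (log2 -1.03, SE 0.60, adjusted p = 0.394, edgeR's quasi-likelihood test). Per length, CSLA1 (68.1 CPM per kb) and CESA5 (59.4) were the most abundant of these genes in parenchyma.

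**Figure D4:**
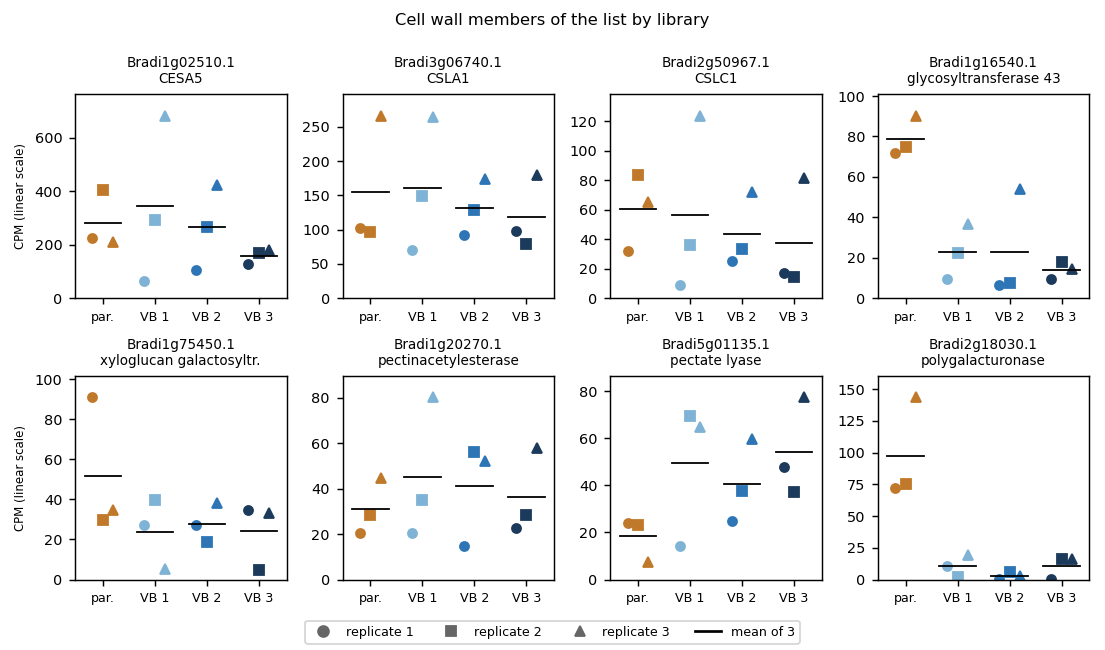
Level (CPM, linear axis) of 8 cell wall genes of the list in each library, by tissue, with the mean of 3 replicates as a line. CESA5, CSLA1, CSLC1 and the pectin acetylesterase are lowest in VB type 1 replicate 1 or VB type 2 replicate 1 and highest in a replicate 3, while the glycosyltransferase and the polygalacturonase are higher in parenchyma than in any VB library.

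Across the 9 VB libraries, several wall genes varied with CESA5. Pearson's r with CESA5 on the log2 CPM scale was above 0.5 for 4 of the other 7 genes of wall polysaccharide synthesis and 4 of the 6 tested pectin enzymes and wall proteins, against 17.6% of all genes tested and 23 of the 98 listed genes. It was also above 0.5 for 6 of the 10 other enzymes of metabolism, and for none of the 9 genes of transcription and chromatin. CSLA1 (0.88), CSLC1 (0.83), the dirigent protein Bradi1g59380.1 (0.87) and the pectin acetylesterase Bradi1g20270.1 (0.85) were among them. CESA5 was chosen as the reference after its values were seen. The points share libraries, depth and scaling, and libraries with the same replicate number tended to deviate together in VBs, so these coefficients are given as a description only.

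Of 8 listed pectin enzymes and other wall proteins, 6 were tested and 1 passed. The polygalacturonase Bradi2g18030.1, an enzyme that cuts pectin, had 72, 75.6 and 144 CPM in parenchyma. The 9 VB libraries ranged from 0.384 to 19.1 CPM with a median of 5.61, and all were below parenchyma. The fold change was 13.9-fold lower (log2 -3.79, SE 0.78, adjusted p = 0.0118, edgeR's quasi-likelihood test), and 10.4-fold lower without parenchyma replicate 3, where the adjusted p was 0.0635. The pectate lyase Bradi5g01135.1, which also breaks pectin, lay on the other side: it had 24.1, 23.4 and 7.36 CPM in parenchyma and 14 to 77.3 CPM in VBs (log2 1.36, SE 0.54, adjusted p = 0.182, edgeR's quasi-likelihood test). Only VB type 1 replicate 1 fell within the parenchyma range. The pectin acetylesterase Bradi5g20827.1 had 37.6, 52.3 and 4.6 CPM in parenchyma and 2.96 to 14.8 CPM in VBs. It was the 1 gene past the threshold without parenchyma replicate 3 that was not among the 10. It also passed in the likelihood ratio test on all 12 libraries.

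The receptor kinases and leucine-rich repeat proteins had the highest median log2 fold change of all function groups (0.31). Without parenchyma replicate 3 it was 0.23, below the 0.37 of transcription and chromatin. Of 7 genes, 4 were above 0 and 0 passed in edgeR's quasi-likelihood test, while 1, the Crinkly4-like kinase, had an unadjusted p under 0.05. ERECTA-LIKE1 (Bradi1g49950.1), the close relative of BdERECTA, had 44.1, 39.9 and 22.1 CPM in parenchyma. It had 88.3, 87.7 and 39.9 CPM in VB type 1, 57.2, 63.3 and 21.3 CPM in type 2, and 32.8, 82.4 and 94.1 CPM in type 3. The ranges overlapped in every VB type, with a log2 fold change of 0.80 (SE 0.44, adjusted p = 0.372, edgeR's quasi-likelihood test).

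The homolog of CLAVATA1 (Bradi1g57900.2), a receptor that limits stem cell number in Arabidopsis shoot meristems, was highest in VB type 2. It had 15.3, 34.9 and 12 CPM in parenchyma and 23, 25.3 and 16 CPM in VB type 1. It had 39.4, 47.7 and 56.1 CPM in VB type 2 and 24.9, 17.1 and 29.1 CPM in type 3. All type 2 libraries were above all other libraries. Against parenchyma the log2 fold change was 1.205 for type 2 (SE 0.541, adjusted p = 0.509, edgeR's quasi-likelihood test). For all VBs it was 0.469 (SE 0.386, adjusted p = 0.586, same test). The log2 difference of type 2 against type 1 was 1.17 at an unadjusted p of 0.011, but the adjusted p was 1 (edgeR's quasi-likelihood test). The Crinkly4-like kinase Bradi1g29720.1, related to a maize receptor of epidermal cell identity, had 15.6, 7.71 and 4.6 CPM in parenchyma and 14.3 to 36.7 CPM in VBs (log2 1.31, SE 0.49, adjusted p = 0.157, edgeR's quasi-likelihood test). Only VB type 1 replicate 3 lay within the parenchyma range, and VB type 3 replicate 2, at 15.58 CPM, was level with parenchyma replicate 1.

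**Figure D5:**
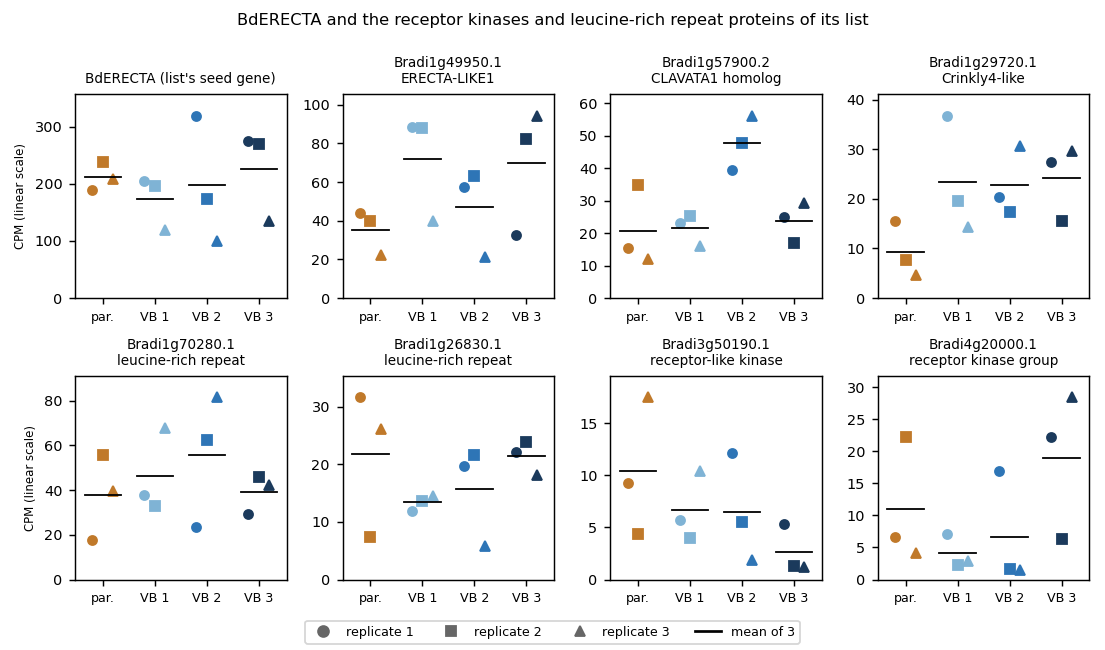
Level (CPM, linear axis) of BdERECTA and of the 7 listed receptor kinases and leucine-rich repeat proteins in each library, by tissue, with the mean of 3 replicates as a line. The CLAVATA1 homolog is highest in the 3 libraries of VB type 2, and ERECTA-LIKE1 overlaps parenchyma in every VB type.

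BdERECTA itself had 189, 238 and 208 CPM in parenchyma and 100 to 319 CPM in VBs with a median of 197. Its range in VBs enclosed that of parenchyma (log2 -0.10, SE 0.34, adjusted p = 0.922, edgeR's quasi-likelihood test). Its candidate ligands are orthologs of the EPFL peptides, a list drawn up with these libraries known. Of 6 such genes, 5 were tested, 1 passed as lower in VBs and 0 as higher. EPFL1 (Bradi3g38740.1) had 12.5, 21.3 and 81.8 CPM in parenchyma and 3.51 to 10.8 CPM in VBs (log2 -2.58, SE 0.50, adjusted p = 0.00852, edgeR's quasi-likelihood test). The tissues did not overlap, and without parenchyma replicate 3 the log2 fold change was -1.38 (adjusted p = 0.188). The co-expression list and the ligand list share no gene.

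Across these libraries, the correlation of the listed genes with BdERECTA was spread around 0. Over 12 libraries, which share depth and scaling, Pearson's r on the log2 CPM scale had a median of -0.0042 over the 99 listed genes and 0.0253 over all genes. It was above 0.5 for 11 listed genes (11.1%, all genes 9.61%) and below -0.5 for 13 (all genes 8.79%). The B3 domain gene Bradi2g60554.2 (0.75) and the basic helix-loop-helix gene Bradi1g35990.1 (0.72), both of families that bind DNA, stood at the top. At the bottom stood the pectin acetylesterase Bradi1g20270.1 (-0.80), the auxin efflux carrier component Bradi2g48170.1 (-0.659) and CSLA1 (-0.655). For CESA5, r with BdERECTA was -0.604 over 12 libraries and -0.714 over the 9 VB libraries. These coefficients depend on the scaling. With library totals in place of TMM, which lets the dominant transcript set the level of all others, the medians were 0.56 for listed and 0.60 for all genes. The mean r between pairs of listed genes was 0.0156, against 0.0159 over all genes.

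Of the 10 listed genes of hormone response and transport, 8 were counted, 4 were tested and 0 passed in edgeR's quasi-likelihood test, with 1 higher and 1 lower at an unadjusted p under 0.05. The 3 SAUR genes, which belong to a family of small auxin-induced proteins linked to cell expansion, were near the limit of detection. Bradi3g42240.1 had pairs only in VB type 2 replicate 1 (0.658 CPM), Bradi4g36990.1 only in parenchyma replicate 1 and VB type 1 replicate 3 (0.289 and 0.0405 CPM), and Bradi4g36950.1 reached at most 3.41 CPM. None of these 3 could be tested for all VBs. The most abundant gene of the group was the auxin response factor Bradi5g25767.1, a transcription factor acting on auxin-regulated genes, with 198, 147 and 230 CPM in parenchyma and 146 to 244 CPM in VBs (log2 -0.11, SE 0.23, adjusted p = 0.855, edgeR's quasi-likelihood test). Its VB range enclosed that of parenchyma.

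A pair of hormone genes lay further apart without passing in the main test. The gibberellin-regulated GASR8 (Bradi1g29515.1), a small cysteine-rich protein, had 147, 205 and 71.7 CPM in parenchyma and 23.2 to 81.1 CPM in VBs (log2 -1.40, SE 0.41, adjusted p = 0.0653, edgeR's quasi-likelihood test). Only parenchyma replicate 3 fell within the VB range, and the adjusted p without it was 0.0536. GASR8 passed under 4 of 20 alternatives, among them the likelihood ratio test and DESeq2. The cytokinin O-glucosyltransferase Bradi3g46557.1, of a family that stores cytokinin as a glucoside, had 2.48, 8.14 and 1.84 CPM in parenchyma and 7.12 to 29 CPM in VBs. Only VB type 1 replicate 3 was within the parenchyma range (log2 1.73, SE 0.61, adjusted p = 0.13, edgeR's quasi-likelihood test). The glucosyltransferase passed under 1 of 20 alternatives, DESeq2.

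Among 9 genes of transcription and chromatin, all tested, 1 passed as higher in VBs and 1 as lower. The BAH domain gene Bradi2g14070.2, of a domain found in chromatin proteins, had no pair in any parenchyma library. It had 15.9, 9.93 and 0.769 CPM in VB type 1, 2.92, 3.66 and 1.14 CPM in type 2, and 17.6, 12.3 and 0.111 CPM in type 3. Every replicate 3 of a VB type was the lowest of its type. Against a floor of 3 pairs per parenchyma library, the VB mean was at least 13.8-fold higher, or at least 82.7-fold higher with the floor of parenchyma replicates 1 and 2 alone. The gene reached the level needed for the test through VB libraries alone, so it could enter only as higher in VBs, and its adjusted p of 0.0301 (0.0608 without parenchyma replicate 3, edgeR's quasi-likelihood test) is given as a description. The gene that passed as lower was Bradi1g74070.2, which carries helicase domains of the SNF2 type found in chromatin remodelers, and it rested on parenchyma replicate 3: 9.71, 2.41 and 357 CPM in parenchyma against 0.864 to 13.9 CPM in VBs. Its log2 fold change of -4.40 (adjusted p = 0.0202, edgeR's quasi-likelihood test) was -0.06 without that library (adjusted p = 0.989).

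Other regulators were uneven between replicates of a tissue. The YABBY gene Bradi1g13570.3, of a family that sets the lower side of lateral organs in Arabidopsis, had 57.7 CPM in VB type 1 replicate 3 and 41.4 CPM in VB type 3 replicate 3, and at most 10.4 CPM in the other 10 libraries. Its log2 fold change was -0.17 (SE 1.36, adjusted p = 0.967, edgeR's quasi-likelihood test). The growth-regulating factor Bradi1g12650.1, of a family that promotes cell proliferation in leaves, was at 0.144 and 0.0335 CPM in parenchyma replicates 1 and 2 and at 28.1 CPM in replicate 3, and VBs spanned 0 to 59.8 CPM. In VB type 3 it had 44.9, 20.1 and 9.93 CPM. Without parenchyma replicate 3 it passed the threshold in type 3 against parenchyma. It met the level needed for that test through VB libraries alone, so this is given as a description. The START domain gene Bradi3g28970.1 was the most abundant of the group and even, at 163 to 228 CPM in parenchyma and 199 to 337 CPM in VBs. The B3 domain gene Bradi3g12910.1 was, beside the BAH domain gene, the only listed gene with every VB library above parenchyma: 15.7, 17.6 and 14.3 CPM against 17.9 to 56.2 CPM (log2 0.91, SE 0.39, adjusted p = 0.225, edgeR's quasi-likelihood test).

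Of 5 methyltransferases tested, 1 passed, as lower in VBs, and 4 had a log2 fold change below 0 with an unadjusted p under 0.05. The gene that passed was Bradi3g51560.1, listed as a dehydration response protein with a domain (DUF248) of putative methyltransferases. It had 47.6, 73.7 and 46.9 CPM in parenchyma. It had 12.2, 10.9 and 2.55 CPM in VB type 1, 32.7, 23.1 and 29.5 CPM in type 2, and 24.4, 12.6 and 13.8 CPM in type 3. All VB libraries were below parenchyma, and type 2 was above type 1 without overlap. The fold change was 3.5-fold lower (log2 -1.81, SE 0.40, adjusted p = 0.0196, edgeR's quasi-likelihood test) and 3.73-fold lower without parenchyma replicate 3 (adjusted p = 0.0401). It passed under 18 of 20 alternatives, but not with library totals or without parenchyma replicate 2, its highest library. The most abundant of the group, Bradi2g57087.6, had 186, 228 and 352 CPM in parenchyma and 129 to 207 CPM in VBs, with ranges that overlapped (adjusted p = 0.158).

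Among genes without a listed function, 11 of 14 counted were tested and 1 passed. Bradi3g05110.1 had 18.2, 65.9 and 10.1 CPM in parenchyma and 1.39 to 7.9 CPM in VBs, without overlap. It was 6.83-fold lower in VBs (log2 -2.77, SE 0.65, adjusted p = 0.0243, edgeR's quasi-likelihood test) and 9.0-fold lower without parenchyma replicate 3 (adjusted p = 0.0228), but without parenchyma replicate 2, its highest library, it did not pass. Bradi1g77210.2 was the gene nearest to the threshold from outside, at 1.11, 23.4 and 17 CPM in parenchyma and 0 to 1.94 CPM in VBs (adjusted p = 0.0507, edgeR's quasi-likelihood test).

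No gene passed in either direction among those of cytoskeleton, membrane traffic and division (10 tested, 1 at an unadjusted p under 0.05), disease resistance (7 tested, 1), protein processing, phosphatases and turnover (9 tested, 0) and other named proteins (5 tested, 0). The villin Bradi2g60910.2, which bundles actin filaments, was even at 121 to 162 CPM in parenchyma and 66.6 to 153 CPM in VBs. The actin gene Bradi3g47800.1 had 7.3, 19.6 and 86.9 CPM in parenchyma and 9.82 to 27.2 CPM in VBs, and its log2 fold change went from -1.07 to 0.43 without parenchyma replicate 3. The tubulin gene Bradi5g09300.1, chosen after its values were seen because its tissues did not overlap, had 69.8, 56 and 74.5 CPM in parenchyma and 19.9 to 48 CPM in VBs (log2 -1.07, SE 0.32, adjusted p = 0.0731, edgeR's quasi-likelihood test). Among the alternatives, the tubulin gene passed in the likelihood ratio test and in DESeq2. Among disease resistance genes, the NBS-LRR gene Bradi2g35767.1 spanned 22.6 to 222 CPM in VBs, both ends in VB type 1, and 72.2 to 151 CPM in parenchyma.

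Cuticle and lipid genes were scarce. Of 8 counted, 3 were tested and 0 passed, with 1 at an unadjusted p under 0.05. The acyl-CoA dehydrogenase Bradi2g35780.1, an enzyme of fatty acid breakdown, had 27.6, 14 and 6.44 CPM in parenchyma and 2.49 to 9.55 CPM in VBs, with overlap through parenchyma replicate 3. The 2 genes listed as WAX2, related to an Arabidopsis gene of wax synthesis, were at most 0.658 CPM (Bradi3g28460.1) and 10.9 CPM (Bradi3g48997.1). Of the 20 listed genes not tested for all VBs, only 1 reached 10 CPM in any library. It was the auxin-induced gene Bradi2g01340.1, with 5.3, 10.4 and 0 CPM in parenchyma and at most 3.48 CPM in VBs. In VB type 1 against parenchyma, where it was tested, its log2 fold change was -1.38 (SE 1.8, adjusted p = 0.868, edgeR's quasi-likelihood test).

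Taken type by type, fewer genes passed. In VB type 3 against parenchyma 2 of 98 genes were lower (2.04%, background 0.743%) and 0 higher (background 0.14%), with 15 lower (background 7.88%) and 3 higher (background 4.7%) at an unadjusted p under 0.05. The likelihood ratio test called 7 (background 4.27%) and DESeq2 10 (background 5.66%), all of them lower. The 2 genes were the α-glucan phosphorylase (log2 -2.80, SE 0.40, adjusted p = 0.0224) and the glycosyltransferase Bradi1g16540.1 (log2 -2.48, SE 0.44, adjusted p = 0.0364), both by edgeR's quasi-likelihood test. Both calls were lost with library totals, with the replicate number as a block, without parenchyma replicate 2 and without any 1 of the 3 type 3 libraries, and that of the glycosyltransferase also without parenchyma replicate 1 or 3 and with all 12 libraries in one fit. In VB type 1 0 of 103 genes passed (background 0% in either direction), with 14 lower (background 6.34%) and 1 higher (background 4.6%) at an unadjusted p under 0.05, 6 called in the likelihood ratio test (background 3.82%) and 8 in DESeq2 (background 4.73%). In VB type 2 0 of 98 passed (background 0.0299% higher and 0.0896% lower), with 14 lower (background 6.32%) and 1 higher (background 3.53%) at an unadjusted p under 0.05, 5 called in the likelihood ratio test (background 3.32%) and 7 in DESeq2 (background 4.48%). The 1 higher gene was the BAH domain gene Bradi2g14070.2 in both types. It met the level needed for these tests through VB libraries alone and could enter only as higher, so these higher counts are given as a description. The boron transporter came closest to the threshold in types 1 and 2, with log2 fold changes of -3.44 (adjusted p = 0.0959) and -3.73 (adjusted p = 0.0528) in edgeR's quasi-likelihood test. That a gene passed in type 3 and not in types 1 or 2 does not show a difference between types.

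Between VB types, 0 listed genes passed in edgeR's quasi-likelihood test, in the likelihood ratio test or in DESeq2 (background 0% in each of the 3 comparisons by the quasi-likelihood test). The background was 0.107%, 0.138% and 0.0234% in the likelihood ratio test and 0.0904%, 0.12% and 0.0818% in DESeq2, for type 2 against 1, type 3 against 1 and type 3 against 2. At an unadjusted p under 0.05, type 2 against 1 had 2 of 103 genes higher (background 1.09%) and 0 lower (background 0.955%). Type 3 against 1 had 2 higher (background 1.01%) and 2 lower (background 1.67%), and type 3 against 2 had 4 of 99 higher (background 1.08%) and 1 lower (background 1.36%). The medians were near 0 (-0.03, 0.00 and 0.09). Among those 5 were the YABBY gene, with 1.76, 3.05 and 41.4 CPM in type 3 and at most 0.4875 CPM in type 2, and the AAA-type ATPase Bradi4g40240.3, which had 12.9, 11.8 and 10.9 CPM in type 2 and 25.6, 19.2 and 28.4 CPM in type 3. Neither gene overlapped between these types, and both had an adjusted p of 1 (edgeR's quasi-likelihood test). The YABBY gene met the level needed for that test through type 3 libraries alone. It could therefore enter only as higher in type 3, and its values are given as a description.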

How the data were processed

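RNA-seq counts of 12 laser-microdissected libraries were used, with tissue and replicate taken from the labels. According to the paper, the authors trimmed reads, removed ribosomal sequences and aligned the rest to transcripts with Bowtie2 (version not given in the sources used here). The deposited count for each of 34310 transcripts is the number of read pairs mapped unambiguously to it, without normalization, and a deposited count of single reads and the transcript length stand beside it. Pairs with equally good hits were removed, so genes with near-identical copies are uncertain. The labels call the libraries not stranded and the paper stranded, so reads from overlapping genes may not be told apart. No genome of the files' annotation was used here, and positions and sequences are not given.

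The analysis of pair counts ran in edgeR 4.0.16 under R 4.3.3 (TMM, quasi-likelihood test, Benjamini-Hochberg adjustment over all genes tested, threshold 0.05). Genes needed 1 CPM in 3 of 6 libraries, or 6 of 12 for all VBs. The likelihood ratio test that the paper names and DESeq2 1.42.0 were alternatives, with RLE size factors, library totals, other filters, the dominant transcript removed, a replicate block, all libraries in one fit and each library left out. Standard errors are the fold change over the square root of F. Correlations used log2 CPM with a prior count of 2. Plots used matplotlib 3.10.9 (Python 3.11.15). The fits were run on simulated counts in which all libraries shared a common composition apart from genes changed on purpose. That run does not cover a library like parenchyma replicate 3.

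Members, function groups (sorted by hand from listed descriptions) and lists were chosen with earlier results of these data known. Named are members the paper names, all that passed, and per function group the most abundant tested gene and the largest and smallest fold change. The rule's last clause took genes absent from one tissue and at 10 CPM or more in all libraries of another. Any other gene named was chosen after its values were seen. Replicate numbers were not used to pair libraries.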

Additional observations from a re-analysis of the deposited data

Results flagged for a closer look

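Among 45 named genes, 4 had a single VB library far from the other 8, by a gap that was large for the range of the 9. For 9 values from a single normal distribution, chance alone gives such a gap in about 1 of 20 groups. CPM pooled over 3 VB types need not follow such a distribution, so the 4 genes cannot be set against that rate. The NAD kinase Bradi2g26930.2 had 20.8 CPM in VB type 2 replicate 2, next to 9.95 CPM. The boron transporter Bradi2g34110.1 had 24.8 CPM in VB type 3 replicate 2, next to 12.2 CPM, and remained below the lowest parenchyma library. The transglycosylase domain gene Bradi3g05286.2 had 16.0 CPM in VB type 1 replicate 1, next to 6.39 CPM. The auxin response factor Bradi5g25767.1 had 243.7 CPM in VB type 2 replicate 1, next to 185 CPM. The 9 libraries come from 3 VB types, and parenchyma, with 3 libraries, was not examined in this way.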

How the results depend on the processing

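The counts below are given without the share of all genes tested in each setting. They describe dependence on the processing and not an excess of listed genes. The count of listed genes past the threshold for all VBs was 10, and fell to 3 with library totals in place of TMM. It ranged from 5 (without parenchyma replicate 3) to 11 when each library was left out in turn, and the other alternatives stayed within 1.5 times. Of the 10, 4 remained without parenchyma replicate 3, and 8 remained with the replicate number as a block, where 11 passed. Replicate numbers were not taken as pairs. Deviations of same-numbered libraries correlated at -0.0452 to 0.069 between parenchyma and VBs (5 of 18 matched their own number best). Among VB types they correlated at -0.0486 to 0.475 (13 of 18). The VB libraries may thus not be independent of each other, while the main tests took them as independent. For VB type 1 the count of 0 became 6 in the likelihood ratio test, 8 in DESeq2, 1 with library totals, 1 without a filter and 2 with all 12 libraries in one fit. For VB type 2 it became 5, 7, 4 without a filter, 2 with the dominant transcript removed and 2 in one fit. For VB type 3 the count of 2 became 7 and 10 in those tests, 8 without a filter, 0 with library totals and 0 with the replicate block, and 0 to 3 with a library left out. The direction of the log2 fold change for all VBs turned in 31 cases, none past the threshold. With library totals it was 0.514 for CSLA1 (Bradi3g06740.1), 0.258 for Bradi3g47800.1, -0.0205 for Bradi4g33640.3, -0.0182 for Bradi5g11780.1 and 0.195 for Bradi5g25767.1. For Bradi5g11780.1 it was -0.00221 without a filter, -0.00321 with the dominant transcript removed and -0.031 with the replicate block, where Bradi4g33640.3 had -0.0579. With a library left out it ranged from -0.517 to 0.162 for CESA5 (Bradi1g02510.1), -1.78 to 2.04 for Bradi1g13570.3, -0.439 to 0.146 for Bradi1g51410.1, -0.774 to 0.0299 for Bradi2g35767.1, -0.125 to 2.24 for Bradi2g53870.1, -0.438 to 0.479 for CSLA1, -1.55 to 0.429 for Bradi3g47800.1, -0.25 to 0.578 for Bradi4g33640.3, -0.185 to 0.35 for Bradi5g11780.1 and -0.279 to 0.0582 for Bradi5g25767.1. The cause was not tested in any of these cases. The 1768043 pairs outside the dominant transcript in parenchyma replicate 3 limit how low a level can be read there.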
